A study of Mus musculus with 8 samples.

Results

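Cells that bind the lectin Dolichos biflorus agglutinin (DBA) were compared between mice with autosomal dominant polycystic kidney disease (ADPKD) and wild-type (WT) mice when both genotypes had received 666-15, a small-molecule inhibitor of the transcription factor CREB. The comparison took the 2 ADPKD and the 2 WT libraries of inhibitor-treated mice out of 8 RNA-seq libraries in the series. It covered the 50156 autosomal genes of a table of 55304 genes, of which 16841 had enough counts to be tested. The other 4 libraries, 2 of each genotype, came from mice given the vehicle DMSO. They served to show where the genotype difference with inhibitor departed from the one without it. Inhibitor at 5 mg/kg, or vehicle, was given daily in weekly blocks of 5 dosing days and 2 days of rest, for 3 weeks from postnatal day 11. The labels give the genotypes as WT and ADPKD without naming the altered gene, the Cre driver or the strain, so the model cannot be described further. Nor do they tie the libraries of a group to different mice, so p-values measure the spread between these libraries. The 2 WT libraries with inhibitor differed in sex by their counts, so these came from different mice. In the other groups the spread may be technical.

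ADPKD is an inherited disorder in which tubules of the kidney widen into fluid-filled cysts, most often after loss of polycystin-1 or polycystin-2. In cyst-lining cells cyclic AMP is high. Cyclic AMP activates protein kinase A, which phosphorylates CREB, and phosphorylated CREB recruits coactivators to genes that carry a cyclic AMP response element (CRE) near their start. DBA binds mainly cells of the collecting duct, the last part of the tubule, where principal cells reabsorb water and sodium and intercalated cells secrete acid or base.

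The 4 inhibitor libraries held between 15108793 and 15778906 counts assigned to genes. Across genes on the log2 scale the replicates correlated at r = 0.988 for WT and r = 0.994 for ADPKD. Replicate 2 of the WT inhibitor group stood apart from the other 7 libraries. It held 17688 counts of Xist, the RNA that silences the second X chromosome in females, and 0 counts of the Y-linked Ddx3y, Eif2s3y, Kdm5d and Uty. The other libraries held 0 to 8 counts of Xist and 1776 to 3722 of Ddx3y. Sex is therefore unbalanced in this comparison, and sex chromosome genes were left out of all counts. Counts or medians without this library (called the female library below) are given for most gene lists.

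Nearly as many genes were higher as lower in ADPKD. With inhibitor, 7849 autosomal genes differed between genotypes at an adjusted p below 0.05 in edgeR's quasi-likelihood test (46.6% of those tested), and "called" below means past this threshold. Of these, 3670 were higher in ADPKD (21.8%) and 4179 were lower (24.8%). At least 2-fold differences were fewer and leaned downward, with 1337 higher (7.94%) and 2461 lower (14.6%), 3798 in all (22.6%). The median log2 fold change over all tested genes was -0.04. Log2 fold changes correlated weakly with the GC percent of the transcript (Spearman rho = -0.21 over 16715 genes). Without the female library 6683 of the calls kept their direction and threshold (85.1%), and 4890 (62.3%) did so whichever of the 8 libraries was left out. With vehicle 9539 autosomal genes were called (56.6%), 4896 higher (29.1%) and 4643 lower (27.6%), and 5605 (33.3%) were called at 2-fold or more. The interaction, which is the log2 genotype difference with inhibitor minus that with vehicle, was called for 4475 genes (26.6%), 2261 upward (13.4%) and 2214 downward (13.1%), and for 2474 (14.7%) it was at least 2-fold. That count fell to 2931 without replicate 1 of the WT vehicle group and to 2958 without replicate 2 of the ADPKD inhibitor group. These shares are what the counts of each gene list below are to be read against.

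The genes with the largest rise included a Wnt ligand, a mucin, cytokines and genes of simple or reactive epithelia. They were taken from genes with a mean of at least 5 CPM whose calls held whichever library was left out and whose groups did not overlap, so these features are given by the choice and rarer genes can have larger folds. Wnt7a, which encodes a secreted ligand of the Wnt pathway (chromosome 6, 91363981 to 91411363 in mm10), stood at 0.133 and 0.190 CPM (counts scaled to library size) in the WT inhibitor libraries and at 87.3 and 79.8 in the ADPKD inhibitor libraries. Its log2 fold change was 8.95 ± 0.25 (SE; edgeR adjusted p = 5.03e-10). The WT level rests on 5 counts against 2517, a 497-fold difference with a 95% counting interval of 213 to 1.53e+03. Muc4, a membrane mucin, had 5.63 and 1.71 CPM in WT and 632 and 473 in ADPKD, a log2 fold change of 7.24 ± 0.57 (edgeR adjusted p = 3.63e-04). Both genes were low in each WT library and high in each ADPKD library.

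Esr1, the estrogen receptor alpha gene, was 3.71 and 3.92 CPM in WT and 332 and 303 in ADPKD (log2 fold change 6.37 ± 0.21, edgeR adjusted p = 5.38e-09). The WT pair includes the female library, and the 2 WT values lay close together. Cxcl5, which encodes a neutrophil-attracting chemokine, was 0.331 and 0.0633 CPM in WT against 20.2 and 32.8 in ADPKD. That is 6 counts against 795, a 131-fold difference with a counting interval of 59.8 to 357 (edgeR adjusted p = 0.00320). Csf3, the gene of granulocyte colony-stimulating factor, went from 22.7 and 12.3 CPM to 454 and 534 (log2 fold change 4.82 ± 0.29).

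Krt19, a keratin of ductal epithelia, was 44.2 and 31.4 CPM in WT and 1088 and 1235 in ADPKD (log2 fold change 4.94 ± 0.18, edgeR adjusted p = 7.54e-09). Msln, which encodes the surface protein mesothelin, was 0.596 and 0.696 CPM in WT and 38.1 and 26.6 in ADPKD. Hmga2, an architectural chromatin protein usually restricted to embryonic tissue, was 0.795 and 0.696 against 26.5 and 25.4 (log2 fold change 5.11 ± 0.21). The ADPKD pairs lay close together beside the distance from WT. Other rises, in Meltf, Ttc9, Ctnnd2, Anxa8, Clca3a2 and Vgf, spanned log2 fold changes of 4.59 for Vgf, a neuropeptide precursor, to 6.30 for Meltf.

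The largest falls, chosen in the same way, included Egf, Slc34a1, Slc5a2, Miox and Slc22a8, which are on the lists of tubule segment genes, and others such as Aspdh and Adra2b that are on none of them. Egf, which encodes the epidermal growth factor precursor made by the thick ascending limb and distal tubule (chromosome 3, 129677565 to 129755316), fell from 1141 and 1554 CPM in WT to 11.8 and 12.1 in ADPKD. Its log2 fold change was -6.81 ± 0.18 (edgeR adjusted p = 5.03e-10). Slc34a1, the main phosphate transporter of the proximal tubule, was 1376 and 1494 CPM in WT and 41.4 and 41.9 in ADPKD (log2 fold change -5.11 ± 0.12, edgeR adjusted p = 4.05e-11). Slc5a2, the proximal glucose transporter SGLT2, was 245 and 271 against 5.21 and 3.53 CPM. ADPKD values lay far below WT values in each of these genes. In bulk libraries such as these, fewer cells of a type and less RNA per cell cannot be told apart.

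Miox, which starts inositol breakdown, was 375 and 539 CPM in WT and 5.60 and 8.76 in ADPKD (log2 fold change -5.99 ± 0.26). G6pc, the catalytic subunit of glucose-6-phosphatase, was 63.0 and 151 against 3.58 and 2.38 CPM, with the WT libraries differing more between themselves than in most named genes. Aspdh had 427 counts in WT and 5 in ADPKD, an 86.5-fold lower level with a counting interval of 36.8 to 268. The remaining largest falls were in Slc34a3, Prodh2, Dnase1, Adra2b, Clec2h, Hsd3b2, Nccrp1, Spp2 and Slc22a8, from -5.76 for Slc34a3, a second phosphate transporter, to -4.94 for Slc22a8, an organic anion transporter.

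**Figure D1:**
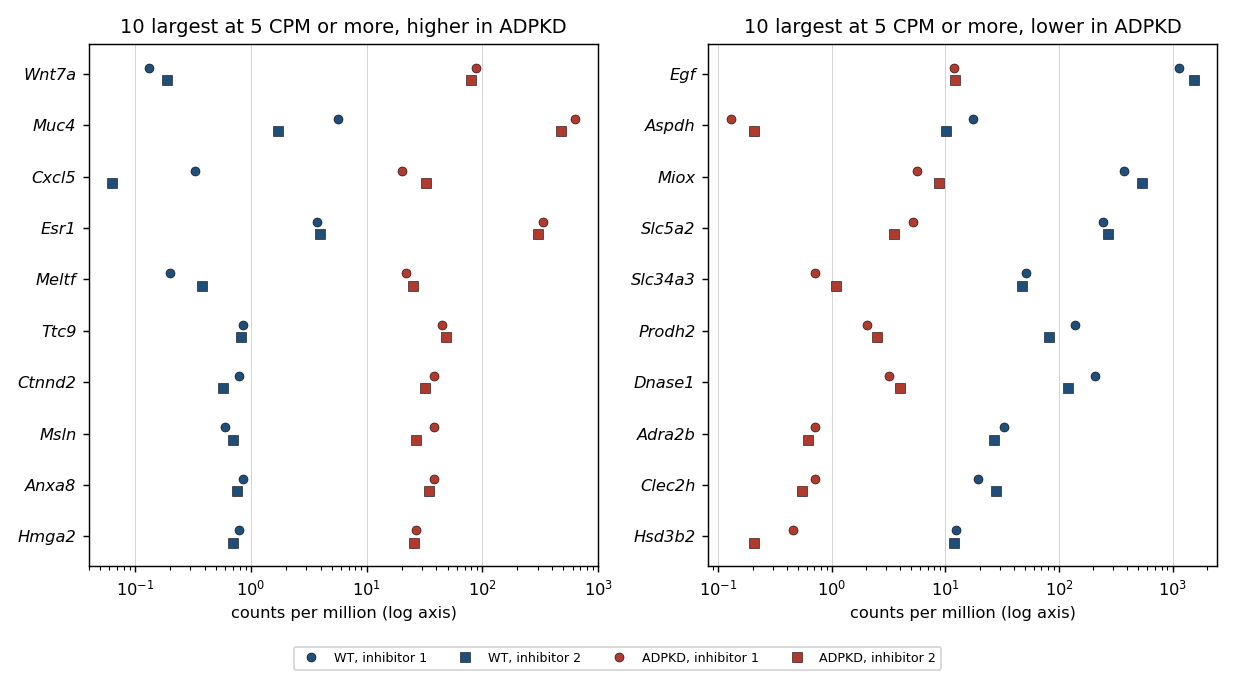
CPM on a log axis in the 4 inhibitor libraries for the 10 called genes with the largest rise (left) and the 10 with the largest fall (right) in ADPKD, among those with a mean of at least 5 CPM, groups that do not overlap and a call held whichever library was left out. Blue points are WT and red points ADPKD, circles replicate 1 and squares replicate 2. In each gene the ADPKD points lie on one side of the WT points. Wnt7a runs from 0.133 and 0.190 to 87.3 and 79.8, and Egf from 1141 and 1554 to 11.8 and 12.1.

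Among abundant genes the same split was seen. Gpx3, a secreted glutathione peroxidase made by the proximal tubule, was 12477 and 13722 CPM in WT and 620.1 and 756 in ADPKD (log2 fold change -4.25 ± 0.14, edgeR adjusted p = 5.03e-10). Clu, which encodes the injury-induced chaperone clusterin, was 3076 and 3096 CPM in WT and 11383 and 13966 in ADPKD (log2 fold change 2.04 ± 0.19, edgeR adjusted p = 2.11e-05). Spp1, the osteopontin gene, rose from 2369 and 2573 to 6131 and 7002 CPM. Rises in F3 (tissue factor), Ahnak, Plau (urokinase) and Lif (leukemia inhibitory factor) lay between log2 1.10 and 1.39.

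Markers of tubule segments were mostly lower in ADPKD. Of 24 proximal tubule genes, 0 were higher and 23 lower with inhibitor, the median log2 fold change being -3.89, and Slc22a7 was the gene not called (0.928 and 0.633 CPM against 0.325 and 0.204). Without the female library 22 were lower. Hnf4a, the transcription factor that drives proximal tubule genes, was 76.8 and 96.0 CPM in WT and 6.38 and 5.02 in ADPKD (log2 fold change -3.92 ± 0.20, edgeR adjusted p = 4.95e-08). Cubn, the endocytic receptor cubilin, was 110.5 and 142 against 10.1 and 9.84 CPM. The summed proximal tubule markers made up 0.710% and 0.873% of counts in the WT inhibitor libraries and 0.0537% and 0.0540% in the ADPKD ones.

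In the thick ascending limb list 0 of 12 genes were higher and 9 lower, with a median of -2.13 (8 lower without the female library). Umod, which encodes the urinary protein uromodulin, was 1183 and 1425 CPM in WT and 198 and 256 in ADPKD (log2 fold change -2.52 ± 0.13, edgeR adjusted p = 3.08e-08). Slc12a1, the sodium-potassium-chloride cotransporter, was 528 and 775 against 72.0 and 96.2 CPM. Of 12 genes of the distal convoluted and connecting tubule, 9 were lower and 2 higher, and 8 and 3 without the female library. Slc12a3, the thiazide-sensitive cotransporter, fell from 713 and 811 to 26.4 and 26.0 CPM (log2 fold change -4.86 ± 0.11, edgeR adjusted p = 4.05e-11).

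The 2 genes that rose against this trend both encode channels for divalent cations, but Trpm7, another such channel on the list, was called lower. Trpv5, the apical calcium channel of the distal tubule, was 57.5 and 51.6 CPM in WT and 245 and 246 in ADPKD (log2 fold change 2.17 ± 0.10, edgeR adjusted p = 9.47e-09). Trpm6, a magnesium channel, was 27.2 and 25.4 against 111 and 99.1 CPM (log2 fold change 2.00 ± 0.13, edgeR adjusted p = 1.47e-07). Trpm6 in vehicle libraries was 72.3 and 68.8 CPM in WT and 73.6 and 58.7 in ADPKD and was not called. The change of the genotype difference between treatments was 2.09 in log2 for Trpm6 (edgeR interaction, adjusted p = 9.20e-06) and 1.83 for Trpv5 (adjusted p = 6.10e-06).

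Principal cell genes, those of the cell type that DBA is used to select, were mostly lower in ADPKD with inhibitor and called in both directions with vehicle. With inhibitor 0 of 15 were higher and 12 lower, with a median of -1.01, and Aqp4, Elf5 and Tfcp2l1 were not called. Of these 15, 11 were lower without the female library. With vehicle 8 were higher and 5 lower, with a median of 0.58, and the interaction was called downward for 8 and upward for 1. Aqp3, a basolateral water channel, was 1079 and 919 CPM in WT and 371 and 452 in ADPKD with inhibitor (log2 fold change -1.28 ± 0.18, edgeR adjusted p = 2.53e-04). Scnn1g, a subunit of the epithelial sodium channel, was 384 and 409 against 166 and 159 CPM (log2 fold change -1.28 ± 0.13). With vehicle the mean levels of Scnn1g were 62.5 CPM in WT and 125 in ADPKD, and the interaction was -2.29 in log2 (edgeR adjusted p = 7.13e-06).

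Ptges, which makes prostaglandin E2, was 528 and 492 CPM in WT and 271 and 295 in ADPKD with inhibitor (log2 fold change -0.85 ± 0.09). Hsd11b2, which protects the mineralocorticoid receptor from cortisol-like steroids, was 1885 and 1626 against 486 and 550.3 CPM (log2 fold change -1.76 ± 0.15, edgeR adjusted p = 3.68e-06). It was lower in ADPKD with vehicle as well, with means of 291 and 117 CPM, and its interaction was not called (-0.45, adjusted p = 0.138). Aqp2, the vasopressin-regulated water channel and a defining marker of these cells, was named here after its values were seen. It was 1543 and 2078 CPM in the WT inhibitor libraries and 372 and 565 in the ADPKD ones (log2 fold change -1.95 ± 0.30, edgeR adjusted p = 0.00250), and 276 and 412 against 613 and 489 with vehicle.

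The WT libraries moved most in this list. Its summed share of counts was 0.790% and 0.806% in WT with inhibitor and 0.221% and 0.262% in WT with vehicle. In ADPKD it was 0.30% and 0.333% with inhibitor and 0.288% and 0.248% with vehicle. Proximal tubule markers went the other way in WT, from 2.21% and 2.09% with vehicle to 0.710% and 0.873% with inhibitor. The part of cell composition in the principal cell result was not tested.

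**Figure D2:**
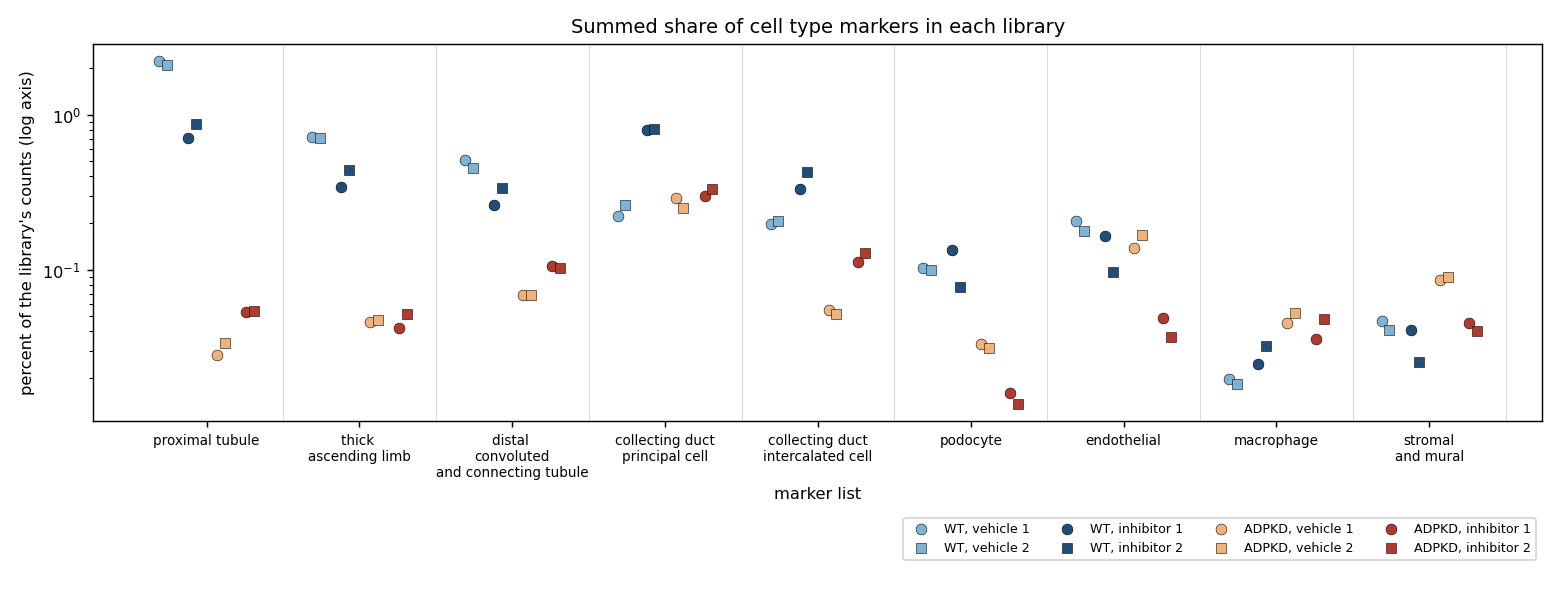
Percent of each library's counts (log axis) taken by the summed genes of 9 cell type marker lists in the 8 libraries; colours give genotype and treatment, and circles and squares replicates 1 and 2. Principal cell genes take 0.790% and 0.806% of counts in WT with inhibitor, above the other 6 libraries, and endothelial genes take 0.0485% and 0.0370% in ADPKD with inhibitor, below the others.

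Intercalated cell genes were lower as well, 16 of 18, with 0 higher and a median of -1.49 (13 lower without the female library). Slc4a1, the basolateral anion exchanger of acid-secreting cells, was 175 and 212 CPM in WT and 10 and 14.5 in ADPKD (log2 fold change -3.99 ± 0.21, edgeR adjusted p = 1.23e-07). Aqp6, an intracellular channel of the same cells, was 323 and 397 against 122 and 150.0 CPM. Atp6v0d2 and Dmrt2 were not called.

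Markers of cells outside the tubule also differed between the genotypes. Of 13 endothelial genes 0 were higher and 12 lower with inhibitor, with a median of -1.87, whereas with vehicle 1 was higher and 2 lower, with a median of -0.38. All 13 were lower with inhibitor when the female library was left out. Emcn, which encodes the endothelial sialomucin endomucin, was 133 and 91.0 CPM in WT and 29.2 and 26.4 in ADPKD (log2 fold change -2.01 ± 0.23, edgeR adjusted p = 1.48e-04; interaction -1.47, adjusted p = 0.00967). Endothelial markers took 0.166% and 0.0972% of counts in WT and 0.0485% and 0.0370% in ADPKD. The WT libraries differed here by more than the ADPKD ones, with the female library the lower.

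Podocyte genes, which mark the filtering cells of the glomerulus, were lower in 10 of 11 cases with a median of -2.63, and in 11 without the female library. Nphs1, the nephrin gene, was 97.1 and 50.2 CPM in WT and 4.43 and 3.53 in ADPKD (log2 fold change -4.21 ± 0.34, edgeR adjusted p = 2.49e-05). Ren1, the renin gene of juxtaglomerular cells, was 41.8 and 21.6 against 7.55 and 3.73 CPM. Neither podocytes nor endothelial cells are cells of the collecting duct, and how much such cells contributed to the genotype differences was not tested.

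Within the stromal and mural list Col1a1, Col1a2, Col3a1, Dcn, Lum and Postn rose, Myh11, Pdgfrb, Ren1 and Rgs5 fell, and Acta2, Cspg4, Pdgfra and Tagln were not called. Col3a1, a fibrillar collagen chain, was 10.1 and 11.7 CPM in WT and 99.2 and 105 in ADPKD (log2 fold change 3.23 ± 0.29, edgeR adjusted p = 4.86e-05). Col1a1 and Postn, the genes of collagen type I and periostin, rose by log2 2.93 and 3.04. Myh11, smooth muscle myosin, fell from 39.6 and 27 to 8.20 and 7.13 CPM (log2 fold change -2.12 ± 0.24), and Pdgfrb, a receptor of pericytes, from 72.8 and 37.1 to 15.6 and 12.4 CPM. In all 6 of 14 members were higher and 4 lower, and without the female library 4 were higher and 4 lower. The list median of 0.65 was 1.07 without WT replicate 1. Their counts summed to 0.0406% and 0.0254% of the WT libraries and 0.0454% and 0.0401% of the ADPKD ones.

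Macrophage genes were higher in ADPKD, 11 of 18 with a median of 1.18, and 1, Csf1r, was lower. With a GC trend removed 10 were higher and 0 lower, and several calls were lost when some library was left out. Without the female library 14 were higher and the median was 1.87, and without ADPKD replicate 2 the median was 0.73. C1qc, a subunit of the complement protein C1q, was 1.92 and 2.85 CPM in WT and 10.8 and 17.6 in ADPKD (log2 fold change 2.57 ± 0.40, edgeR adjusted p = 3.80e-04). Lyz2, the lysozyme of myeloid cells, was 12 and 20.4 against 40.3 and 60.1 CPM. With vehicle the list's median was 3.09, and 9 of the 18 members had a lower genotype difference with inhibitor than with vehicle by the interaction test. For Lyz2 that change was -2.73 in log2 (edgeR adjusted p = 0.00131). Mrc1, the mannose receptor, went the other way, with 13.8 and 12 against 29.7 and 32.8 CPM and an interaction of 1.43 (edgeR adjusted p = 0.00317). The T cell genes Cd3e, Cd3g and Cd3d had too few counts to be tested.

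The remaining cell type lists held few calls or few counts. Of 8 tested lymphocyte and granulocyte genes 2, Cd8a and Retnlg, were lower, and neither call held when each library was left out in turn (1 was lower without the female library). Of 5 erythroid genes 4 globins were lower, with Hbb-bs from 16.7 and 11.5 to 0.325 and 0.747 CPM. The globin calls are uncertain, since reads can be split between near-identical copies within the alpha and within the beta pair, and 2 of the 4 held whichever library was left out. Hba-a1 lost its call in 4 such fits and with a GC trend removed, and Hbb-bt in 3. Of 8 urothelial genes Psca and Upk3b were higher, with Psca at 1.52 and 3.16 against 8.72 and 9.64 CPM. The call of Upk3b was lost without WT replicate 1 or 2 (adjusted p 0.0583 and 0.0629), and the uroplakins Upk1a and Upk3a were below 4 CPM in all 4 libraries. In the thin limb list 2 of 6 genes were lower and 1, Akr1b3, was higher, a call that was lost without WT replicate 1 or ADPKD replicate 2 (adjusted p 0.0630 and 0.0846). Aqp1, a water channel that the proximal tubule also expresses, fell from 404 and 365 to 84.8 and 48.5 CPM. Of 10 kidney genes known to differ by sex 8 were lower and 1, Cyp2j13, higher, and without the female library 7 were lower and 1 higher. Kap, an androgen-induced gene of the proximal tubule, was 2327 and 1322 CPM in WT, with the female library the lower, and 170 and 202 in ADPKD (log2 fold change -3.29 ± 0.45, edgeR adjusted p = 0.00329).

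Mitochondrial energy genes were lower throughout the list. All 30 genes of oxidative phosphorylation on the list were lower with inhibitor, with a median of -1.10 and a range of -1.61 to -0.69, and all 30 were lower without the female library too. Cyc1, cytochrome c1 of complex III, was 249.9 and 241 CPM in WT and 85.9 and 88.0 in ADPKD (log2 fold change -1.50 ± 0.10, edgeR adjusted p = 1.23e-07). Atp5b, the catalytic subunit of ATP synthase, was 2594 and 2848 against 1201 and 1344 CPM. With vehicle all 30 were lower as well, with a median of -1.63, and for 17 the genotype difference was smaller with inhibitor by the interaction test. In WT the list took 1.29% and 1.27% of counts with vehicle and 0.928% and 1.02% with inhibitor. In ADPKD it took 0.424% and 0.393% with vehicle and 0.418% and 0.451% with inhibitor, so the WT share moved more. Proximal tubule genes, which mark a cell type rich in mitochondria, differed in the same direction, and their part in this result was not tested.

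Fatty acid oxidation followed with 18 of 20 genes lower and a median of -1.23, and 18 lower without the female library too. Cpt1a, the gate of fatty acid entry into mitochondria, was 308 and 347 CPM in WT and 121 and 131 in ADPKD (log2 fold change -1.38 ± 0.11, edgeR adjusted p = 5.94e-07). In glycolysis 10 of 16 genes were lower and 1, Hk2, was higher, the same counts as without the female library. Hk2, the inducible hexokinase, was 76.2 and 87.8 CPM in WT and 674 and 681 in ADPKD (log2 fold change 3.05 ± 0.11, edgeR adjusted p = 6.90e-10). Eno1 and Ldha, which act later in the pathway, had log2 fold changes of -1.13 and -0.82.

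Injury and repair genes were higher in 17 of 20 cases, with a median of 1.24, and 1, Vim, was lower (17 and 1 without the female library as well). Havcr1, which encodes the kidney injury molecule of damaged tubule cells, was 1.99 and 1.20 CPM in WT and 30.4 and 37.6 in ADPKD (log2 fold change 4.41 ± 0.25, edgeR adjusted p = 3.93e-08). With vehicle its means were 4.95 CPM in WT and 12.5 in ADPKD, and the interaction was 3.07 (edgeR adjusted p = 4.28e-05). Sox9, a transcription factor of regenerating tubules, was 56.3 and 61.8 CPM in WT and 218 and 218 in ADPKD. Prom1, a marker of dedifferentiated tubule cells, was 143 and 163 against 442 and 457 CPM.

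In the keratin list, which shares Krt7, Krt8, Krt18 and Krt19 with the injury list, 8 of 14 genes were higher and 2, Krt10 and Krt14, lower, against 7 and 1 without the female library. The interaction was negative and called for 8 of the 14. Krt18 was 1470 and 1371 CPM in WT and 2788 and 3182 in ADPKD (log2 fold change 1.07 ± 0.10, edgeR adjusted p = 1.91e-06). With vehicle the means were 423 and 3239 CPM, and the interaction was -1.87 (edgeR adjusted p = 3.56e-06). Its level in ADPKD was alike in both treatments, and the WT level was the one that stood higher with inhibitor. Krt7 gave an interaction of -1.88, from 836 and 903 CPM in WT and 1631 and 1650 in ADPKD with inhibitor.

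Inflammatory signals were raised in 14 of 25 genes of the cytokine and NF-kB list, with a median of 1.10, and Birc3, Csf1, Cxcl10 and Nfkb2 were lower (13 higher and 5 lower without the female library). Tnf, the tumor necrosis factor gene, was 5.10 and 5.82 CPM in WT and 58.6 and 63.1 in ADPKD (log2 fold change 3.47 ± 0.23, edgeR adjusted p = 2.94e-07). Cxcl2, a neutrophil chemokine, was 27.5 and 39.9 against 299.6 and 408 CPM. Nfkbiz, a nuclear NF-kB regulator, was 184 and 159 against 714 and 653 CPM (log2 fold change 2.00 ± 0.14; interaction 1.03, edgeR adjusted p = 0.00199). Csf2, the gene of granulocyte-macrophage colony-stimulating factor, had 3 counts in WT and 249 in ADPKD, an 81.9-fold difference with a counting interval of 27.7 to 400.

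Interferon response genes were lower in 15 of 23 cases with a median of -0.66, and 1, Oas1a, was higher (0 higher without the female library). Ifit2, an antiviral effector, was 33.5 and 26.6 CPM in WT and 5.99 and 5.43 in ADPKD (log2 fold change -2.39 ± 0.23, edgeR adjusted p = 3.84e-06). Irf1, a transcription factor of the pathway, was 91.6 and 82.6 against 35.1 and 34.3 CPM. The medians of the inflammatory and interferon lists thus lay on opposite sides of WT, with genes in both lists that were not called or went the other way. With vehicle the interferon median was -1.69, and 12 of 23 members were less reduced with inhibitor by the interaction test.

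Matrix and TGF-beta genes were higher in 11 of 22 cases and lower in 4, Col4a1, Col4a2, Mmp2 and Tgfb3. Without the female library 11 were higher and 5 lower, and with a GC trend removed 13 and 2. Tgfb2, a ligand, was 12.6 and 12.8 CPM in WT and 45.5 and 45.1 in ADPKD (log2 fold change 1.83 ± 0.14, edgeR adjusted p = 6.04e-07). Tgfbr1, its receptor, was 122 and 119 against 322 and 294 CPM. Mmp14, a membrane-bound matrix protease, was 68.6 and 49.3 against 246 and 259.9 CPM. Mmp7, a secreted protease, had 0 counts in both WT libraries and 79 and 78 in the ADPKD ones. Against a floor of 3 counts over the WT group it was at least 53.7-fold higher in ADPKD.

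Among growth factors and their receptors, 11 of 21 were higher and 5 lower, with and without the female library. Pdgfb, a ligand of mesenchymal cells, was 178 and 146 CPM in WT and 574 and 646 in ADPKD (log2 fold change 1.91 ± 0.12, edgeR adjusted p = 9.03e-08). Tgfa, a ligand of the epidermal growth factor receptor, was 60.3 and 54.7 against 113 and 122 CPM, while Egf, a ligand of the same receptor, had the fall given above. Met, the receptor of hepatocyte growth factor, was 536 and 621 against 1255 and 1356 CPM (log2 fold change 1.17 ± 0.10). With vehicle Met means were 462 and 498 CPM and not called, and the interaction was 1.07 (edgeR adjusted p = 2.06e-04).

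In the Wnt list 8 of 23 genes were higher and 4, Lgr4, Lrp5, Lrp6 and Sfrp1, were lower. Wnt7b, a ligand of the ureteric epithelium, was 148 and 103 CPM in WT and 417 and 432 in ADPKD (log2 fold change 1.76 ± 0.17, edgeR adjusted p = 1.54e-05). Tcf7, a transcription factor that carries the signal, was 4.31 and 4.36 against 20.6 and 15.5 CPM. Ctnnb1, beta-catenin, was 719.5 and 754 against 1268 and 1222 CPM. Lgr4, a receptor that strengthens the signal, went from 115 and 125 to 63.1 and 54.6 CPM. The median of the list was -0.08 and changed sign with the setting, and 8 were higher and 3 lower without the female library.

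**Figure D3:**
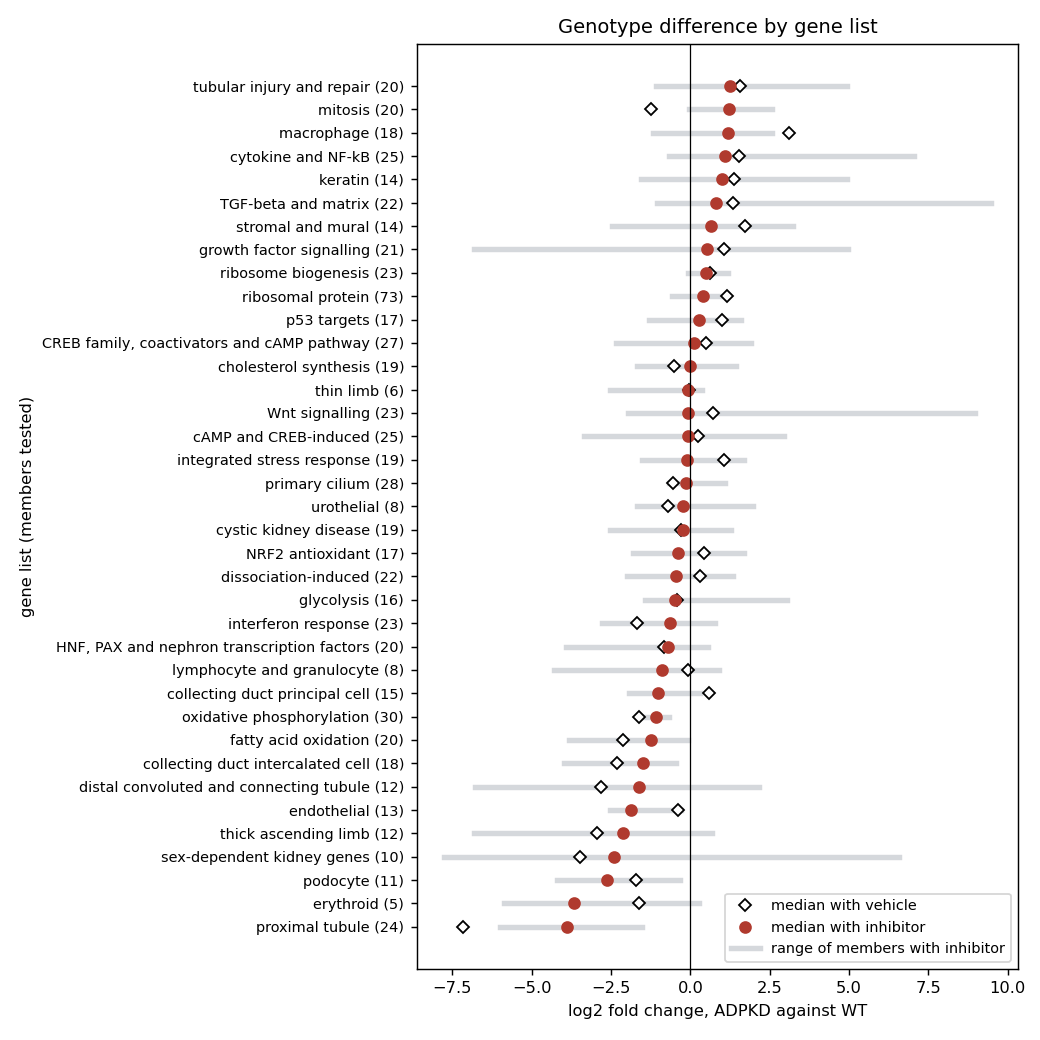
Median log2 fold change of ADPKD against WT in 37 gene lists, with inhibitor (red circles) and with vehicle (open diamonds); grey bars span the members with inhibitor and the number tested stands in brackets. Proximal tubule is lowest at -3.89 with inhibitor. The medians of several lists lie on opposite sides of 0 in the 2 treatments. Mitosis (1.22 with inhibitor against -1.24), principal cells (-1.01 against 0.58) and NRF2 antioxidant genes (-0.38 against 0.44) are among them. Ends of bars set by genes at 0 counts in a group depend on the prior count.

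Cell division genes were mostly higher in ADPKD with inhibitor and mostly lower with vehicle. Several of the calls with inhibitor were lost when some library was left out. With inhibitor 13 of 20 mitosis genes were higher and 0 lower, with a median of 1.22, and without the female library 15 were higher with a median of 1.72, while without WT replicate 1 the median was 0.91. With vehicle 2 were higher and 12 lower, with a median of -1.24, and the interaction was positive and called for 15 of 20. Prc1, which organises the spindle midzone, was 3.58 and 7.27 CPM in WT and 22.5 and 21.2 in ADPKD (log2 fold change 2.01 ± 0.26, edgeR adjusted p = 5.07e-05). It was 1 of the 2 that were higher with vehicle too, with means of 7.82 and 12.6 CPM (adjusted p = 0.0326). Kif11, the motor that separates spindle poles, was 2.12 and 4.81 against 11.5 and 9.57 CPM. With vehicle the means of Kif11 were 5.38 CPM in WT and 1.78 in ADPKD, so the genotypes changed order (interaction 3.19, edgeR adjusted p = 5.22e-04).

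Cdk1, the kinase of mitotic entry, was 2.32 and 3.10 CPM in WT and 7.22 and 10 in ADPKD (log2 fold change 1.67 ± 0.37, edgeR adjusted p = 0.00238). Top2a, the topoisomerase of dividing cells, was 4.70 and 11.9 against 24 and 23.7 CPM (log2 fold change 1.52 ± 0.34). WT replicate 2, the female library, was the higher of the WT pair in both. Mki67, the usual proliferation marker, was named after its values were seen. Its WT values of 7.95 and 26.6 CPM spread widely against 38.9 and 41.1 in ADPKD, and it was not called (edgeR adjusted p = 0.102). The mitosis genes summed to 0.00555% and 0.0106% of counts in WT and 0.0187% and 0.0181% in ADPKD with inhibitor, and to 0.0103%, 0.0119%, 0.00642% and 0.00686% in WT and ADPKD with vehicle. Levels are low, and the call of Cenpf, a kinetochore protein, was lost without ADPKD replicate 1 or 2 or WT replicate 1 (adjusted p 0.0513, 0.0995 and 0.0877).

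**Figure D4:**
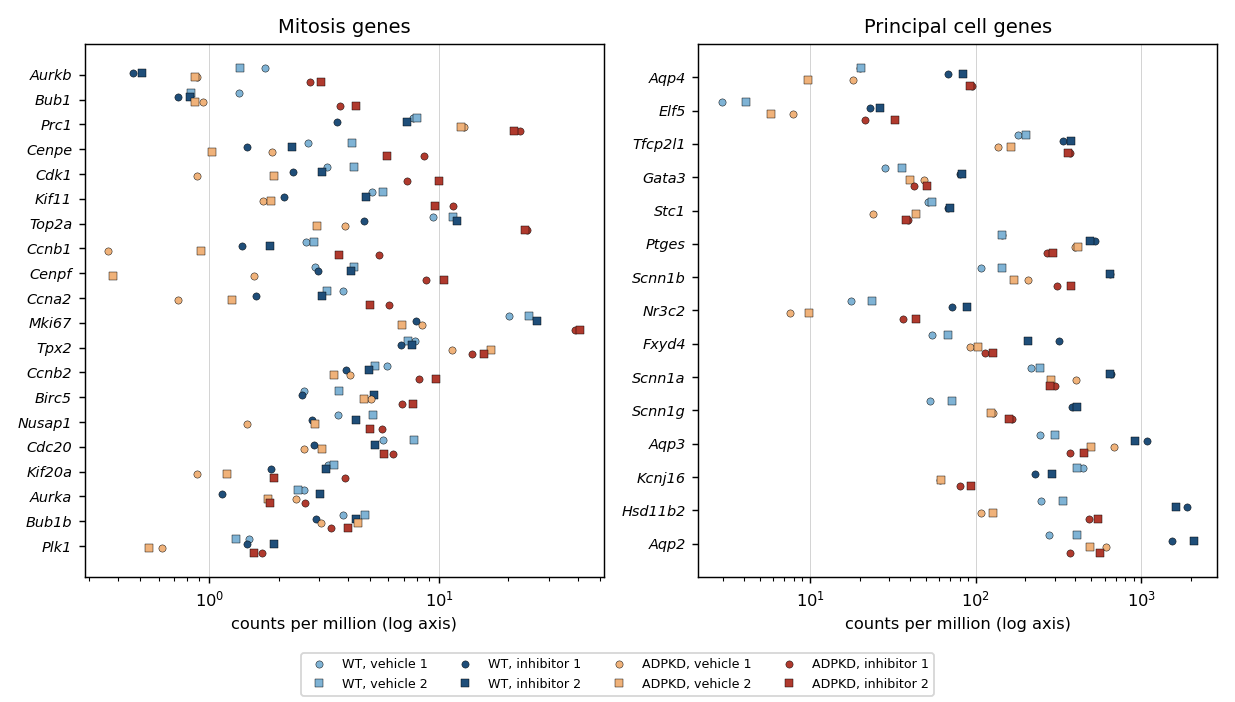
CPM on a log axis in the 8 libraries for the tested mitosis genes (left) and principal cell genes (right), ordered by log2 fold change with inhibitor; colours give genotype and treatment, and circles and squares replicates 1 and 2. For Kif11 the ADPKD inhibitor libraries (11.5 and 9.57) lie right of WT with inhibitor (2.12 and 4.81), and for Aqp3 they lie left of it (371 and 452 against 1079 and 919).

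Genes for making ribosomes were raised in both treatments. Of 73 ribosomal protein genes 45 were higher and 0 lower with inhibitor, with a median of 0.40, and 71 were higher with vehicle, with a median of 1.14. The interaction was negative and called for 59 of 73. Of 23 ribosome biogenesis genes 16 were higher and 0 lower (14 and 1 without the female library). Ncl, the nucleolar protein nucleolin, was 342 and 395 CPM in WT and 721 and 814 in ADPKD (log2 fold change 1.06 ± 0.10, edgeR adjusted p = 3.89e-06). Npm1, nucleophosmin, was 180.0 and 217 against 389.7 and 462 CPM. Without the female library 38 ribosomal protein genes were higher and 2 lower.

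Stress response genes had another genotype difference with inhibitor than with vehicle. In the integrated stress response list 5 of 19 genes were higher and 6 lower with inhibitor, against 16 higher and 1 lower with vehicle, and the interaction was negative and called for 13. The inhibitor counts were 5 higher and 3 lower with a GC trend removed and 7 higher and 5 lower without the female library, so the order of the directions turned with the setting. Ddit3, the stress transcription factor CHOP, was 137 and 125 CPM in WT and 42.9 and 47.6 in ADPKD (log2 fold change -1.53 ± 0.13, edgeR adjusted p = 1.21e-06). With vehicle it was 72.4 and 93.0 in WT and 131 and 119 in ADPKD, the opposite order (interaction -2.13, edgeR adjusted p = 8.77e-06). Atf4, the central factor of this response, was 772 and 695 against 460.2 and 531 CPM with inhibitor.

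Of 17 antioxidant genes controlled by NRF2, 10 were lower and 2, Pgd and Txnrd1, higher with inhibitor, against 3 lower and 10 higher with vehicle. The medians were -0.38 with inhibitor and 0.44 with vehicle. Most of the inhibitor calls in this list were lost when some library was left out. The counts were 8 lower and 2 higher without the female library. Osgin1 was 148 and 170.4 CPM in WT and 64.8 and 56.4 in ADPKD (log2 fold change -1.39 ± 0.11, edgeR adjusted p = 5.00e-07), and its interaction was -2.13 (adjusted p = 2.67e-06). Srxn1, which repairs oxidised peroxiredoxins, was 1082 and 1152 against 692 and 825 CPM. Among p53 targets 8 of 17 were higher and 4 lower with inhibitor, and 8 and 6 with a GC trend removed. Their median was 0.27, or 0.15 with a GC trend removed and 0.19 without the female library. Pmaip1, a death-promoting gene, was 176 and 184 against 462 and 469 CPM and Gadd45a 373 and 357 against 205 and 223.

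CREB and its pathway were measured directly. Creb1, which encodes the inhibited factor (chromosome 1, 64532645 to 64604548), was 36.0 and 33.7 CPM in WT and 53 and 54 in ADPKD with inhibitor (log2 fold change 0.62 ± 0.12, edgeR adjusted p = 8.41e-04). After removal of a GC trend its log2 fold change was 0.21 and it was not called (adjusted p = 0.188). With vehicle it was 41.6 and 44.7 against 78.6 and 69.3 CPM, and the interaction was not called (-0.16, adjusted p = 0.512). The drug acts on the protein, so this RNA does not measure its effect. In the list of CREB family members, coactivators and cyclic AMP pathway genes 9 of 27 were higher and 8 lower, with a median of 0.10 that changed sign with the setting (7 higher and 6 lower after removal of a GC trend, 9 and 9 without the female library). Prkacb, a catalytic subunit of protein kinase A, was 63.7 and 71.5 against 173 and 163 CPM (log2 fold change 1.31 ± 0.11). Adcy4, an adenylyl cyclase, went from 20.3 and 14.0 to 4.69 and 3.26 CPM.

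Genes that cyclic AMP and CREB induce in many cells moved in both directions, with 5 of 25 higher and 11 lower with inhibitor and a median of -0.08 that changed sign with the setting. Counted without the female library, 6 were higher and 12 lower. Those higher were Areg, Gem, Pde4b, Pde4d and Ptgs2. Gem, a small GTP-binding protein, was 154 and 168 CPM in WT and 412 and 449.6 in ADPKD (log2 fold change 1.42 ± 0.10, edgeR adjusted p = 1.79e-07). Areg, the growth factor amphiregulin, was 2.72 and 2.53 against 19.7 and 20.8 CPM. Per2, a circadian clock gene, was 170.4 and 138 against 57.5 and 46.0 CPM (log2 fold change -1.57 ± 0.15).

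Atf3, a stress-induced repressor, was 1109 and 1253 CPM in WT and 580.4 and 558 in ADPKD (log2 fold change -1.05 ± 0.11, edgeR adjusted p = 7.42e-06). Egr1, an immediate early gene, was 945 and 949.9 against 641 and 524 CPM with inhibitor and, as means, 738 against 1073 with vehicle (interaction -1.24, edgeR adjusted p = 9.11e-05). With vehicle 11 of the 25 were higher and 9 lower. Several of these genes are also induced when tissue is dissociated. In a list of such genes 5 of 22 were higher and 12 lower with inhibitor (4 and 12 without the female library, 7 and 9 with a GC trend removed), against 11 higher and 2 lower with vehicle, and the part of cell isolation was not tested. Those genes took 1.39% and 1.38% of counts in WT and 1.22% and 1.17% in ADPKD with inhibitor.

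The sequence TGACGTCA is the full CRE to which CREB binds, and it reads the same on both strands. It was searched in RefSeq promoters of GRCm38.p6 that run from 250 bases before to 50 bases after a gene's start. Of all 32851 promoter sequences 1.79% held it, and of the 11637 tested genes with a promoter 3.36% did. Since 69.1% of the tested genes had a promoter in the table, no share is given by direction of change. Of the 260 genes chosen for description, 191 had a promoter and 9 held the motif, 4 of them higher and 5 lower in ADPKD. They are shown to let the sites be compared, 5′ to 3′ on the gene's strand, with the motif in capitals and up to 25 flanking bases that stop at the start site.
Areg: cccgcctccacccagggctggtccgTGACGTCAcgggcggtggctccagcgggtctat
Creb5: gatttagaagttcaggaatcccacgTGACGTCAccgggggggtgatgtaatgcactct
Cenpe: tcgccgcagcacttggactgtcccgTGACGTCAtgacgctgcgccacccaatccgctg
Ift57: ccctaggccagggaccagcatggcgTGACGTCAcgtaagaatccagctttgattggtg
Arl4d: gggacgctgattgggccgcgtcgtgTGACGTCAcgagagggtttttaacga
Btg2: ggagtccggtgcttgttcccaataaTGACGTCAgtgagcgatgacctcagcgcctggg
Flt1: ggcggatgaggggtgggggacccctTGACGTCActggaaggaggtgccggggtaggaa
Ldha: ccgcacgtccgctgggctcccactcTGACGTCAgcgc
Uqcrfs1: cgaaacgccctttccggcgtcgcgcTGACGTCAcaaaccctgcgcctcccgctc

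The first 4 belong to genes that were higher in ADPKD and the last 5 to genes that were lower. The Areg window lies at chr5:91139513-91139570 on the plus strand, its motif starting 61 bases before the start site, and Areg rose by 2.94 ± 0.28 in log2. The Creb5 window is chr6:53287233-53287290 (plus), with the motif 45 bases before the start, and this CREB family gene was 19.2 and 31.7 CPM in WT and 65.5 and 65.8 in ADPKD (edgeR adjusted p = 2.12e-04). The Arl4d window is chr11:101665490-101665540 (plus), with the motif 26 bases before the start of a gene that fell by 1.76 in log2. The Btg2 window is chr1:134079289-134079346 (minus), and this anti-proliferative gene was 345 and 294 CPM in WT and 189.7 and 197 in ADPKD. Both directions were thus found among genes with the full motif close to the start.

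The windows of Cenpe (chr3:135212504-135212561), Ift57 (chr16:49699107-49699164), Flt1 (chr5:147726060-147726117, minus), Ldha (chr7:46845767-46845803) and Uqcrfs1 (chr13:30545317-30545370, minus) have their motifs 34, 162, 81, 12 and 29 bases before the start. Their log2 fold changes were 1.95 for the kinetochore motor Cenpe, 0.48 for the ciliary transport gene Ift57, -0.96 for the endothelial receptor Flt1, -0.82 for Ldha and -1.10 for Uqcrfs1. The Ift57 call was lost without ADPKD replicate 1 or 2 or WT replicate 1 (adjusted p 0.0610, 0.0716 and 0.0825) and with a GC trend removed (0.0670). The Ldha window lies inside the gene as annotated in GENCODE (46841475 to 46855627), so its start is not the first one of that gene. For Ldha and Btg2 the promoter bases after the start were not found near the beginning of a GENCODE transcript. A match describes the letters in the window and does not show that CREB binds there.

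Genes of cystic kidney disease were called in both directions, 4 higher and 6 lower of 19, with 3 higher and 4 lower after removal of a GC trend and 3 and 6 without the female library. These counts lay not far from the shares among all tested genes, 21.8% higher and 24.8% lower. Pkd1 (chromosome 17, 24549834 to 24596508) was 69.0 and 50.7 CPM in WT and 48.9 and 38.5 in ADPKD (log2 fold change -0.45 ± 0.15, edgeR adjusted p = 0.0296). The call was lost without WT replicate 1 (adjusted p = 0.278) or ADPKD replicate 2 (adjusted p = 0.249), and with a GC trend removed (adjusted p = 0.169). Pkd2 was 165 and 184 against 216 and 210.5 CPM (log2 fold change 0.29 ± 0.10, edgeR adjusted p = 0.0382), and its call was lost when any of 5 libraries was left out. Since the altered gene is not named, neither level checks the genotype labels. Bicc1, an RNA-binding protein whose loss causes cysts, was 105 and 141 CPM in WT and 306 and 296 in ADPKD (log2 fold change 1.29 ± 0.14; interaction 1.39, edgeR adjusted p = 3.56e-04).

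Cys1, which encodes the ciliary protein cystin, was 56.0 and 55.9 against 21 and 12.1 CPM (log2 fold change -1.76 ± 0.20). Of 28 primary cilium genes 5 were higher and 3 lower, and the remaining 20 were not called. The counts were 3 higher and 4 lower with a GC trend removed and 7 higher and 2 lower without the female library. Kif3a, a motor of ciliary transport, was 15.1 and 14.8 against 29.5 and 31.4 CPM. Among nephron transcription factors 13 of 20 were lower and 1, Tfap2a, higher (11 and 2 without the female library). Pou3f3, a factor of the distal nephron, was 133 and 149.6 against 57.7 and 54.8 CPM. Of 19 cholesterol synthesis genes 5 were higher and 5 lower, against 4 and 5 without the female library.

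The genotype differences with inhibitor largely ran the way of those with vehicle. Of the calls with inhibitor 5485 (69.9%) had a call of the same direction with vehicle, which is 57.5% of the vehicle calls, and 351 (4.47% of inhibitor calls, 3.68% of vehicle calls) had the opposite one. The 2 contrasts share no library, and across 16841 genes, which are not independent replicates, their log2 fold changes correlated with r = 0.71. Among 2974 genes lower in both, the median absolute log2 fold change was 1.71 with vehicle and 1.32 with inhibitor. Among 2511 genes higher in both it was 1.01 and 0.83. In the proximal tubule list, for example, the median was -7.17 with vehicle and -3.89 with inhibitor, and 18 of 24 genes had a called interaction upward.

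**Figure D5:**
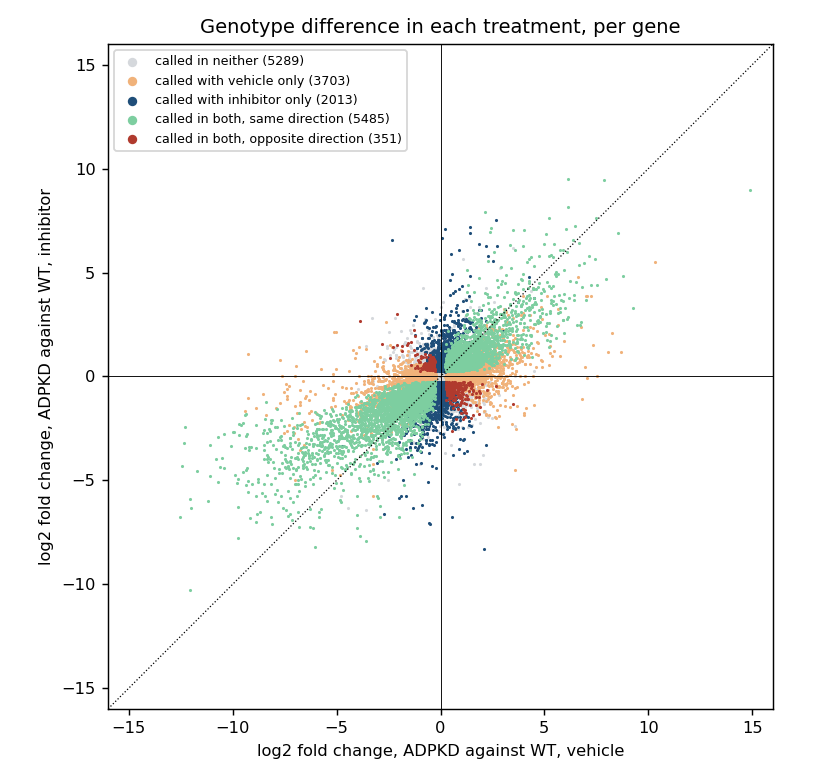
Log2 fold change of ADPKD against WT with vehicle (horizontal) and with inhibitor (vertical) for the 16841 tested autosomal genes; each point is a gene, colours give where it was called and the dotted line marks equal differences. The 5485 green points lie in the quadrants of equal sign and the 351 red points in those of opposite sign. Points far out belong in part to genes with 0 counts in a group, whose values depend on the prior count.

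Of the opposite genes, 222 were higher in ADPKD with vehicle and lower with inhibitor, and 129 the reverse. Genes to describe were taken among those with a mean of at least 5 CPM in the inhibitor libraries and groups that did not overlap. This mean can be reached through the higher group alone. The 8 of them with the largest difference with inhibitor were Ddit3, Cdk1, Kif11, Top2a and Cenpf, described above, and Cdkn1c, Arl4d and Smad6. Cdkn1c, a cell cycle inhibitor that podocytes also express, was 42.4 and 30.9 CPM in WT and 5.99 and 5.84 in ADPKD with inhibitor (log2 fold change -2.63 ± 0.22, edgeR adjusted p = 1.57e-06). With vehicle its means were 25.4 and 37.8 CPM. Arl4d, a small GTPase, was 114 and 73.8 against 28.8 and 26.5 CPM with inhibitor and 81.8 and 76.0 against 184 and 131 with vehicle. Smad6, an inhibitor of bone morphogenetic protein signals, was 30.2 and 15.1 against 8.4 and 6.86 with inhibitor and 25 and 25.3 against 53.5 and 36.6 with vehicle. In all 3 the ADPKD level was the one farther from its vehicle value.

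With inhibitor 2013 genes were called that were not called with vehicle, and 827 of these also passed the interaction test. Des, the muscle and mesangial intermediate filament desmin, was 29.1 and 17.4 CPM in WT and 2.67 and 2.17 in ADPKD (log2 fold change -3.26 ± 0.30, edgeR adjusted p = 2.87e-06), against 13.5, 16.1, 9.55 and 13.0 with vehicle. Cited4, a transcriptional cofactor, was 20.1 and 12.8 against 1.76 and 0.814 CPM (log2 fold change -3.67 ± 0.35, edgeR adjusted p = 3.64e-06), and 5.88 and 5.61 against 3.94 and 3.80 with vehicle. Both were higher in WT and lower in ADPKD with inhibitor than with vehicle. Serpini1, Exoc3l2 and Zfp366 fell by 3.20, 3.25 and 2.53 in log2. In these 5 genes replicate 1 was the higher WT library, as for endothelial and podocyte markers, whose part was not tested.

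Upward, Slc38a4, an amino acid transporter, was 6.29 and 2.97 CPM in WT and 29.8 and 36.6 in ADPKD with inhibitor (log2 fold change 2.84 ± 0.30, edgeR adjusted p = 1.52e-05), and 4.08 and 3.25 against 4.72 and 3.53 with vehicle. Vtcn1, an immune checkpoint ligand, was 2.72 and 1.71 against 19.7 and 20.2 CPM (log2 fold change 3.17 ± 0.43). Pclaf, a partner of the replication clamp, was 0.861 and 2.47 against 9.96 and 10.6 CPM (log2 fold change 2.61 ± 0.43, edgeR adjusted p = 3.06e-04). For Slc38a4 and Pclaf the ADPKD inhibitor pair lay above the other 6 libraries.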

How the data were processed

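RNA of DBA-positive kidney cells was sequenced from 8 mouse libraries, 2 in each of 4 groups. The authors deposited 1 table of raw counts per gene, not normalized. Per the submitters' processing notes, HISAT2 2.1.0, featureCounts 1.6.0, DESeq2 and mm10 were used, and the sources used here do not state whether counting used strand, so overlapping antisense genes cannot be told apart. The labels' extraction text also mentions whole kidney. Columns of the vehicle groups were matched to their group by elimination, since their names carry genotype and number but no treatment. Libraries held 15108793 to 19702638 counts.

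Genes were placed on chromosomes with the GENCODE M21 and RefSeq annotations of GRCm38 (mm10). Counts were fitted with edgeR 4.0.16 in R 4.3.3 (TMM scaling, filterByExpr at its defaults, 10 counts and 15 in total, robust quasi-likelihood test) over all 4 groups, which share 1 estimate of the spread (biological coefficient of variation 0.138). The contrasts tested were genotype with inhibitor, genotype with vehicle, and their interaction. P-values were adjusted by Benjamini-Hochberg over all 17440 genes tested, and autosomal genes were then counted. Standard errors are the log2 fold change divided by the square root of F, and CPM values use TMM-scaled library sizes. Counting intervals are exact 95% intervals and, like the floor of 3 counts over a group, cover counting error only.

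On simulated data with 16802 genes, the inhibitor contrast recovered 44.8%, 80.6% and 90.9% of genes changed 1.5-, 2- and 4-fold, and 12.2% of 164 calls were false. Same-numbered libraries did not deviate together (correlations -0.0371 to 0.0806 over 11199 genes), so the main fit has no replicate block. DESeq2 1.42.0, other scalings, filters, GC and length corrections and leaving out each library were the alternatives.

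The members and the 37 gene lists were chosen with earlier results of these data known. Named genes were chosen by rule, leaving out model symbols such as Gm and Rik. The rule took the 15 largest called changes in each direction (mean of at least 5 CPM, groups not overlapping, call held when each library was left out). It added up to 6 of smallest p per list and the 8 largest changes among genes called in opposite directions. Another 8 were the largest among those called with inhibitor and in the interaction but not with vehicle. Both sets of 8 needed a mean of at least 5 CPM and groups not overlapping. Last came the 10 most abundant genes called at 2-fold or more, and Creb1, Pkd1 and Pkd2. Aqp2, Mki67, Trpm7 and the genes named as the few exceptions of a list were named after their values were seen. A few of the genes that the rule chose are not reported here.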

Additional observations from a re-analysis of the deposited data

Results flagged for a closer look

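The genotype difference changed between vehicle and inhibitor for 4475 autosomal genes by edgeR's interaction test, and 351 genes were called in opposite directions in the 2 treatments. Among the 260 genes chosen for description the interaction was called for 136, against 26.6% of all tested genes. Some of the 260 were chosen for an interaction call or for opposite calls, so the choice itself adds to this count. In genes with opposite calls the sign of the interaction is also set by that choice.

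Of the genes with opposite calls, dividing-cell genes had positive interactions in log2, 3.09 for Cdk1, 3.29 for Cenpf, 3.19 for Kif11 and 3.13 for Top2a. The interaction was negative for Arl4d (-2.76), Cdkn1c (-3.20), Ddit3 (-2.13) and Smad6 (-2.41). Of the genes called with inhibitor and not with vehicle, it was positive for Pclaf (3.37), Slc38a4 (2.68) and Vtcn1 (2.11). It was negative for Cited4 (-3.10), Des (-2.86), Exoc3l2 (-2.24), Serpini1 (-2.52) and Zfp366 (-1.82).

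Outside the autosomal genes, Xist stood at 17688 counts in inhibitor-treated WT replicate 2 and at 0 to 8 in the other 7 libraries.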

How the results depend on the processing

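The number of autosomal genes called with inhibitor (7849) was 7308 with DESeq2, 7544 with the 2 groups fitted alone, 7555 with a GC trend removed and 6975 under a filter of 5 CPM. Requiring at least 2-fold left 3798 with inhibitor, 5605 with vehicle and 2474 in the interaction. Leaving out each library in turn gave 5715 to 8049 calls with inhibitor, 7577 to 9989 with vehicle and 2931 to 4910 in the interaction. The interaction moved by more than 1.5 times without WT vehicle replicate 1 (2931) and without ADPKD inhibitor replicate 2 (2958), and the cause was not tested. An interaction from the 2 inhibitor groups alone could not be fitted. With the replicate number as a block the counts were 7788, 9477 and 4438, and same-numbered libraries did not deviate together. Over 18 alternatives 0 of the 260 described genes reversed, and the calls of 49 gene-and-setting pairs were lost and 3 gained. Under the filter of 5 CPM 14 of these genes were not retained. Many of the 260 were chosen for a small p or for a call held whichever library was left out. Their stability is therefore in part given by the choice, and the share over all calls is given in the Results. With 2 libraries a group and an unbalanced sex, small differences are limited by the spread between libraries. Simulated recovery was 44.8% at 1.5-fold, but with far fewer changed genes than were called in the data, so it does not measure recovery there.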
